A study of Mus musculus with 22 samples.

Results

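Myosin heavy chains are the motor proteins of the thick filament, the part of the sarcomere that pulls on actin. The genes examined were Myh1, Myh2, Myh3, Myh4, Myh7 and Myh8, and every probe set annotated with one of these 6 symbols alone was taken, whatever its values. They are 6 of the 8251 genes that a probe set names alone. This gave 9 probe sets of the 12488 on the array, a probe set being a group of short probes read as 1 value. Of these, 7 were bright enough to be tested. Myh2 has 1 probe set (92218_at) and it was not among them, so 5 of the 6 genes were tested.

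The RNA came from the muscles around the eyeball that turn it (extraocular muscle, EOM) and from leg muscle of SJL and Balb mice, at 12 months (1 year in the labels) and at 10 months. There were 8 groups: SJL EOM, Balb EOM, SJL leg and Balb leg, each at both ages. SJL EOM and Balb EOM had 2 arrays each at 12 months and every other group had 3, which makes 22 arrays. SJL is an inbred strain known for a natural mutation of dysferlin, a membrane repair protein, and for a progressive disease of limb muscles; Balb served as the other strain. The labels give strain, tissue and age only, with no genotype, sex, treatment or named leg muscle, and leave it unsaid whether a replicate is an animal of its own. The p-values therefore measure the spread between these samples, which may be technical.

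A muscle fibre is typed largely by the heavy chain it makes. Myh7 encodes the slow chain, which the heart can also make, and Myh2, Myh1 and Myh4 encode the adult fast chains IIA, IIX and IIB. Myh3 encodes the embryonic chain and Myh8 the perinatal chain; limb muscle makes both before and around birth and again in regenerating fibres, while extraocular muscle is known to keep both in adult life. Because whole muscle was sampled, a smaller share of fibres of a type and less of the RNA per fibre cannot be told apart.

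The arrays differed in ways that touch the brightest probe sets. The highest intensity on an array lay between 33366 and 41476 on the 6 leg arrays at 12 months and between 49074 and 61883 on the 4 EOM arrays at 12 months. At 10 months it lay between 40242 and 59439 on the 4 replicate 1 arrays, and between 88354 and 122314 on the 8 others. Among 53 probe sets above 40000 on all 4 arrays of 10-month leg, replicates 2 and 3, a choice made after the values were seen, 4 to 9 read under 10000 on the 12-month leg arrays, 10 to 18 on the 10-month replicate 1 arrays and 0 to 2 on the rest. Myh1 (98308_at), Myh4 (98488_at) and Myh7 (98616_f_at) are 3 of these 53. The 10-month replicate 1 arrays also had a 3′ to 5′ signal ratio for Actb, a measure of RNA integrity, of 5.05 to 53.7, against 0.847 to 1.93 on the other 18 arrays. For Gapdh the same ratio was 2.17 to 19.9, against 0.0534 to 6.71, and these ranges overlap. Age coincides with a different range of the arrays, so age and array set cannot be told apart. Of 7 skeletal muscle marker genes, 5 were tested and none was called between EOM and leg in either strain. Equal muscle content is not shown by this, since Acta1 differed by 2.49 in SJL and by 1.73 in Balb (SE 1.19 each). The summed intensity of the 5 ranged from 37453 to 124889 in SJL EOM and from 25352 to 206503 in SJL leg. In Balb it ranged from 23286 to 152297 in EOM and from 29672 to 194498 in leg.

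Myh1, Myh2, Myh3, Myh4 and Myh8 lie together on chromosome 11, and Myh7 lies on chromosome 14. The stretch around the start of 4 of the clustered genes is shown. With all arrays, Myh3 and Myh8, the embryonic and perinatal genes, were called between EOM and leg. The neighbouring fast genes Myh1 and Myh4 were not. This does not set Myh4 apart from Myh8. The log2 EOM-minus-leg difference of Myh4 (98488_at) was 2.78 in SJL and 2.37 in Balb (SE 1.73 each). That of Myh8 (160243_r_at) was 2.68 and 2.34 (SE 0.28 each). On smaller sets of arrays Myh1 was called in SJL, and Myh4 was called higher in Balb and lower in SJL. Each sequence is RefSeq's for build GRCm38.p6, + strand, from 250 bases before the gene start to 50 bases after it. Myh3 is at chr11:67078050-67078349, Myh8 at chr11:67276874-67277173, Myh1 at chr11:67199852-67200151 and Myh4 at chr11:67237562-67237861.
Myh3: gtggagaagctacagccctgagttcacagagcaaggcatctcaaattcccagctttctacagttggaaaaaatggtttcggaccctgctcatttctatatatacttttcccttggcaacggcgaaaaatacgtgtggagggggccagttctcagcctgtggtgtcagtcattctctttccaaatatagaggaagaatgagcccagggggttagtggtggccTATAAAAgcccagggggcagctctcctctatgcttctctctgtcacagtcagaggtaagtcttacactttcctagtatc
Myh8: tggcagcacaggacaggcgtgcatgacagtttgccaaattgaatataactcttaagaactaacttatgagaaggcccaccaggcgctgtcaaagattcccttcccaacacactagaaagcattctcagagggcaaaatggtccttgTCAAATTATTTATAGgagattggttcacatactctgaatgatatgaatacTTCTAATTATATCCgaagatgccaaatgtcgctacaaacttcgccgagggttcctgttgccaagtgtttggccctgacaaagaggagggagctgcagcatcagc
Myh1: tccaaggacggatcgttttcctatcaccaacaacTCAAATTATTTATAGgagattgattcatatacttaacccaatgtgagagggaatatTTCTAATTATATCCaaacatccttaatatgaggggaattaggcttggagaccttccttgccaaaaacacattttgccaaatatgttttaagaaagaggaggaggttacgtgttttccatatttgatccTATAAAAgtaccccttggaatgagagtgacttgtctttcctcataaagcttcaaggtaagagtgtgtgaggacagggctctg
Myh4: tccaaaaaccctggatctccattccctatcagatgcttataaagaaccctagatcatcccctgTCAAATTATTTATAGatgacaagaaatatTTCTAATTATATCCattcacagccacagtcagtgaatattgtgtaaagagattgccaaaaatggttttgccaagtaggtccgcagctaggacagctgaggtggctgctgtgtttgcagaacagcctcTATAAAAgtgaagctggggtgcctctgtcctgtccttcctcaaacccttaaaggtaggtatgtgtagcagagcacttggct
Capitals mark 3 letter runs, each searched on both strands: TATAAAA, TTCTAATTATATCC and TCAAATTATTTATAG. The 14-letter run TTCTAATTATATCC occurred in 4 of 32851 promoter windows of this length (0.0122%), those of Myh1, Myh2, Myh4 and Myh8. The 15-letter run TCAAATTATTTATAG occurred in 3 windows (0.00913%), those of Myh1, Myh4 and Myh8. They are the longest runs that these 4 and these 3 windows have in common, so their rarity is a description. The runs do not overlap each other or TATAAAA. The window of Myh3 holds neither, and has TATAAAA 29 bases before the gene start, as Myh1 has 32 and Myh4 has 31 bases before theirs. TATAAAA is in 5.48% of all windows, and these letters are not in the window of Myh8. Myh8 thus shares both long runs with Myh1 and Myh4, the 14-letter run with Myh2 and neither with Myh3.

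Myh3, the embryonic chain, was far higher in EOM than in leg in both strains. In SJL EOM, Myh3 (160753_at) read 14903 and 14385 at 12 months and 5892, 12977 and 11204 at 10 months. In SJL leg it read 576.1, 353.1 and 436.4 at 12 months and 638.6, 727.1 and 273.7 at 10 months. The lowest SJL EOM array was thus 5892 and the highest SJL leg array 727.1, with no overlap at either age. In Balb EOM the values were 17488 and 13979 at 12 months and 10826, 13220 and 13832 at 10 months. In Balb leg they were 413.3, 427.5 and 371.8 at 12 months and 399.1, 239.6 and 175.0 at 10 months. Again no EOM array came near a leg array.

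The fitted EOM-minus-leg difference of Myh3 was 4.59 on the log2 scale in SJL (SE 0.27, adjusted p = 7.79e-09) and 5.37 in Balb (SE 0.27, adjusted p = 1.09e-09). These are 24.1-fold and 41.5-fold on the scale of intensity plus 16. The difference passed the threshold under all 35 alternatives tried, each age and each left-out array included, between 4.19 and 4.99 in SJL and between 5.18 and 5.94 in Balb. By group mean the order was Balb EOM at 12 months (15734 ± 2481, SD, n = 2), SJL EOM at 12 months (14644 ± 367, n = 2), Balb EOM at 10 months (12626 ± 1588, n = 3) and SJL EOM at 10 months (10024 ± 3687, n = 3), ahead of the 4 leg groups, whose means ran from 271.2 to 546.5. The EOM groups of both strains overlapped each other at 12 months and again at 10 months, and each pair of neighbours among the leg groups overlapped.

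Between strains, Myh3 did not pass the test in either muscle. In leg it averaged 455.2 ± 113 in SJL and 404.2 ± 28.9 in Balb at 12 months, and 546.5 ± 240 in SJL and 271.2 ± 115 in Balb at 10 months (SD, n = 3 each). The SJL-minus-Balb difference in leg was 0.54 (SE 0.25, adjusted p = 0.597, 95% interval 0.01 to 1.07), and the arrays of the strains overlapped. In EOM it was -0.25 (SE 0.28, adjusted p = 0.965). The strain difference in EOM minus that in leg was -0.79 (SE 0.38, unadjusted p = 0.0521, adjusted p = 1).

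**Figure D1:**
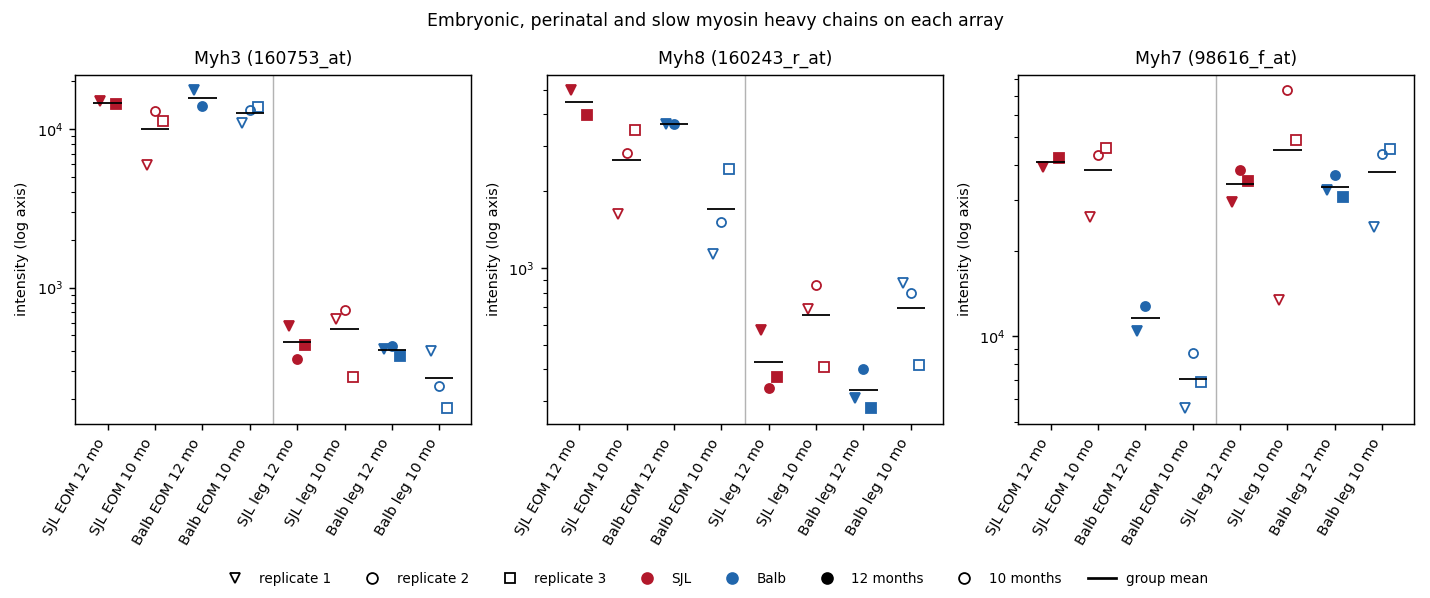
Intensity on each array (log axis) of Myh3, Myh8 and Myh7 in the 8 groups, EOM left and leg right of the grey line. Symbols mark replicates, filled symbols 12 months, open symbols 10 months, red SJL, blue Balb, and black bars group means. Myh3 in EOM lies at 5892 or more on every array, and Myh7 in Balb EOM at 12718 or less.

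Myh8, the perinatal chain, was also higher in EOM in both strains. In SJL EOM, Myh8 (160243_r_at) read 4965 and 3984 at 12 months and 1631, 2826 and 3487 at 10 months. In SJL leg it read 571.8, 338.6 and 374.4 at 12 months and 689.3, 860.8 and 407.7 at 10 months. All SJL EOM arrays lay above all SJL leg arrays. In Balb EOM the readings were 3663 and 3656 at 12 months and 1135, 1509 and 2443 at 10 months. In Balb leg they were 310.3, 400.6 and 282.9 at 12 months and 873.2, 798.0 and 415.7 at 10 months. Here the gap was narrow at 10 months, where the lowest EOM array read 1135 and the highest leg array 873.2.

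The EOM-minus-leg difference of Myh8 was 2.68 in SJL (SE 0.28, adjusted p = 4.03e-06) and 2.34 in Balb (SE 0.28, adjusted p = 1.6e-05). Within 12 months alone it was 3.36 in SJL and 3.42 in Balb (adjusted p = 3.4e-06 and 2.64e-06). Within 10 months alone it was 1.99 in SJL and 1.26 in Balb and missed the threshold (adjusted p = 0.0744 and 0.278). On the 10-month arrays of replicates 2 and 3 it was 2.37 and 1.71 (adjusted p = 0.00471 and 0.0291). The suffix _r_at marks a probe set for which Affymetrix relaxed its usual probe selection rules. Strain differences of Myh8 were 0.46 in EOM (SE 0.29, adjusted p = 0.788) and 0.13 in leg (SE 0.26, adjusted p = 0.964).

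Myh7, the slow chain, was lower in EOM than in leg in Balb, and SJL EOM read above Balb EOM. In SJL EOM, Myh7 (98616_f_at) read 39361 and 42471 at 12 months and 26176, 43225 and 46042 at 10 months. In Balb EOM it read 10463 and 12718 at 12 months and 5598, 8728 and 6909 at 10 months. The lowest SJL EOM array, at 26176, stood above the highest Balb EOM array, at 12718. In SJL leg the values were 29513, 38540 and 34983 at 12 months and 13383, 73150 and 48953 at 10 months. In Balb leg they were 32755, 36923 and 30742 at 12 months and 24149, 43800 and 45332 at 10 months. The leg groups of both strains and the SJL EOM groups overlapped, and the Balb EOM groups lay below them all.

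The SJL-minus-Balb difference of Myh7 in EOM was 2.12 (SE 0.35, adjusted p = 0.00264, 95% interval 1.39 to 2.86), or 4.35-fold. It stayed between 2.04 and 2.25 and under the threshold without any 1 array. Within 12 months it was 1.82 (adjusted p = 7.2e-05) and within 10 months 2.42 (adjusted p = 0.401, and 0.000261 on replicates 2 and 3, where it was 2.52). In leg the strain difference was 0.02 (SE 0.31, adjusted p = 0.996, 95% interval -0.64 to 0.68). The difference between the EOM and the leg strain effects was 2.11 (SE 0.47, unadjusted p = 0.000303, adjusted p = 0.132), so it was not called. It was called when the 4 replicate 1 arrays at 10 months were left out (1.94, adjusted p = 1.49e-05) and on the 12-month arrays alone (1.79, adjusted p = 0.003). With the replicate number as a block it was called as well, as given below with the other alternatives.

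Against leg, Myh7 in EOM differed by -1.96 in Balb (SE 0.33, adjusted p = 0.000602), 3.88-fold lower, and by 0.15 in SJL (SE 0.33, adjusted p = 0.857, 95% interval -0.55 to 0.85). Within 10 months the Balb difference was -2.38 (adjusted p = 0.0859), and on replicates 2 and 3 it was -2.52 (adjusted p = 5.84e-05). Within 12 months it was -1.53 (adjusted p = 2.05e-05). On the 12-month leg arrays Myh7 read at 74.3 to 94.0% of the array's highest intensity, against 41.6 to 59.8% in 10-month leg replicates 2 and 3. On the SJL EOM arrays it read at 79.9 and 80.2% at 12 months, against 44.0 to 47.9% at 10 months. Values of Myh7 at 12 months in leg and in SJL EOM may therefore be capped, and the differences between muscles and between strains there have this limit. The suffix _f_at marks probes that match a family of sequences, so signal from a related chain such as Myh6 is not separated.

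Other slow-fibre genes were set beside Myh7. In SJL EOM against Balb EOM, 2 of the 10 tested genes of a 12-gene list of slow sarcomere and calcium genes were higher and none lower. Of all probe sets tested, 0.368% were higher and 0.564% lower. The median difference of the 10 genes was 0.90, against -0.04 over all probe sets tested. Tnnc1, the slow and cardiac troponin C, was 2.67 higher (SE 0.45, adjusted p = 0.00323) and Myl2, the slow regulatory light chain, 2.10 higher (SE 0.31, adjusted p = 0.000929). Myl2 averaged 31994 ± 2626 in SJL EOM and 9954 ± 1554 in Balb EOM at 12 months (SD, n = 2 each), and 37434 ± 9021 in SJL EOM and 6443 ± 930 in Balb EOM at 10 months (n = 3 each). Myl3, the slow essential light chain, differed by 2.25 (adjusted p = 0.0875), Tnni1, the slow troponin I, by 1.86 (adjusted p = 0.247), and Tnnt1, the slow troponin T, by 0.31 (adjusted p = 0.991), none of which passed. The 5 others did not pass either: Atp2a2 differed by 0.96 (adjusted p = 0.0935), Ankrd2 by 0.84 (adjusted p = 0.717), Casq2 by 0.60 (adjusted p = 0.702), Tpm3 by -0.08 (adjusted p = 0.993) and Csrp3 by -1.16 (adjusted p = 0.396). The difference between the strain effects of EOM and leg was 1.99 for Myl2 (adjusted p = 0.111) and 2.24 for Tnnc1 (adjusted p = 0.324), and neither passed.

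Between muscles, 4.86% of all probe sets fell in Balb EOM against Balb leg, and the median over all was 0.11. The median over the 10 slow genes was -1.95, and 6 of them fell. They were Myl3 (-5.16), Ankrd2 (-3.22), Tnnc1 (-2.59), Atp2a2, the slow calcium pump (-2.08), Myl2 (-1.96) and Csrp3 (-1.94). In SJL, 4 fell and 1 rose, where 3.42% of all probe sets fell and 6.14% rose, with a median of -0.19 against 0.04. Those that fell in SJL EOM were Myl3 (-2.80), Csrp3 (-2.08), Atp2a2 (-1.70) and Ankrd2 (-1.70), and Casq2, a calcium store protein of slow fibres and heart, was 1.33 higher. Myl2 and Tnnc1 differed by 0.03 and -0.35 in SJL, and neither passed. The comparison of muscles in Balb and that of strains in EOM share the Balb EOM arrays.

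**Figure D2:**
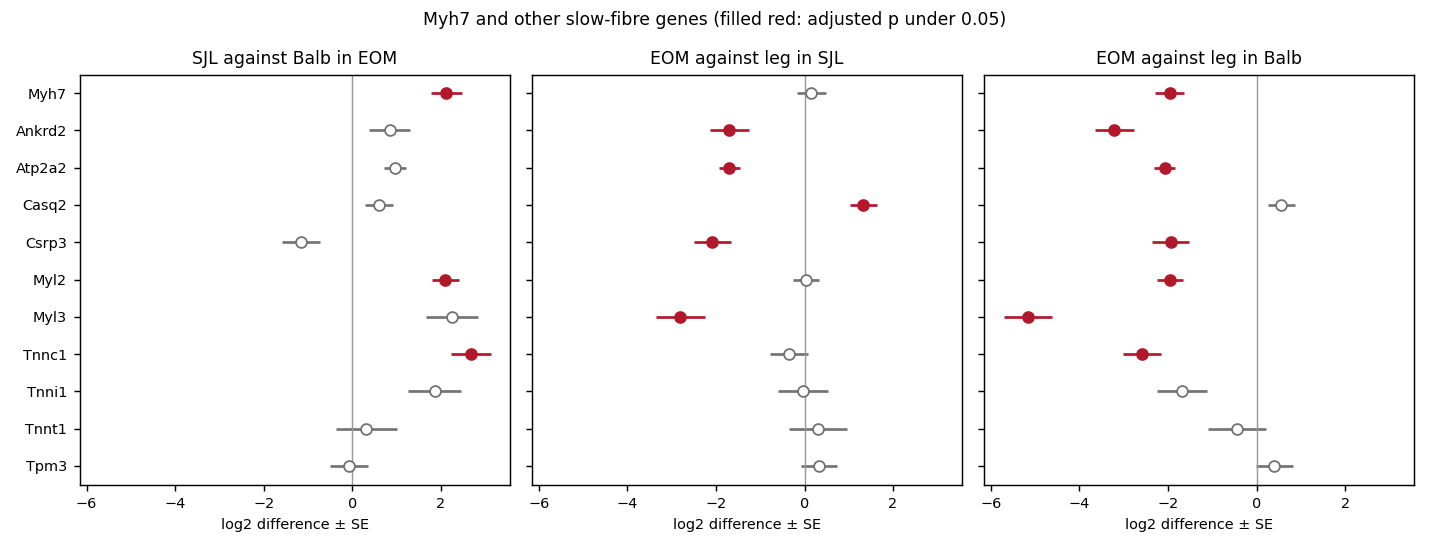
Fitted log2 differences with standard errors of Myh7 and 10 other slow-fibre genes for SJL against Balb in EOM and for EOM against leg in each strain. Filled red points have an adjusted p under 0.05. In the left panel Myh7, Myl2 and Tnnc1 are filled, at 2.12, 2.10 and 2.67.

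Markers of orbital glands and of heart muscle were compared between the EOM samples of the strains. Of all probe sets, 0.564% were called lower and 0.368% higher in SJL EOM against Balb EOM. Of 8 markers of orbital glands and epithelium, 5 were tested and 2 were called lower in SJL EOM against Balb EOM, with summed intensities of 5590 to 11140 in SJL EOM and 17454 to 34072 in Balb EOM. Of 6 heart muscle markers, 4 were tested and none was called, with sums of 1894 to 3587 in SJL EOM and 2186 to 3357 in Balb EOM. Myh6, the alpha heavy chain of the heart and another of the 6, was too dim to be tested. It was looked at after its values were seen. Fitted with no filter on dim probe sets, Myh6 was higher in SJL EOM by 3.04 (SE 0.60, adjusted p = 0.0141). Its Balb EOM arrays read low, from 18.8 to 158.2. The median difference of the 4 tested heart markers was -0.01, and no value is given for Myl7, the other marker not tested. The part of gland or heart-type signal in the Myh7 difference was not tested.

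Myh1, the fast IIX chain, gave no called difference between muscles or strains on all arrays. In SJL EOM, Myh1 (98308_at) read 38316 and 39143 at 12 months and 36541, 90548 and 66449 at 10 months. In SJL leg it read 31226, 37232 and 37792 at 12 months and 33082, 56802 and 55872 at 10 months. Replicate 1 was the lowest array in both 10-month groups, below the 12-month EOM arrays. In Balb EOM the values were 41978 and 38223 at 12 months and 31061, 72738 and 68199 at 10 months. In Balb leg they were 32029, 36204 and 36358 at 12 months and 31614, 57783 and 55580 at 10 months. Myh1 stood at the 99.6th percentile of its array or above on every array.

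The EOM-minus-leg difference of Myh1 was 0.25 in SJL (SE 0.27, adjusted p = 0.67) and 0.20 in Balb (SE 0.27, adjusted p = 0.683). Without the 10-month replicate 1 arrays it was 0.30 in SJL (SE 0.10, adjusted p = 0.0334) and 0.26 in Balb (SE 0.10, adjusted p = 0.0603). On the 12-month leg arrays Myh1 sat at 87.8 to 93.6% of the array's highest intensity, against 46.4 to 62.7% in 10-month leg replicates 2 and 3. Strain differences were 0.06 in EOM (95% interval -0.55 to 0.67) and 0.02 in leg (95% interval -0.53 to 0.56).

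Myh4, the fast IIB chain, varied more between arrays of a group than any other tested member. In SJL EOM, Myh4 (98488_at) read 24885 and 32759 at 12 months and 22050, 58831 and 56657 at 10 months. In SJL leg it read 597.2, 14222 and 12925 at 12 months and 0.7, 107361 and 79460 at 10 months. The lowest and the highest value of the probe set on any array were thus both in SJL leg at 10 months, on replicates 1 and 2. In Balb EOM the values were 45961 and 25536 at 12 months and 15974, 50272 and 59618 at 10 months. In Balb leg they were 1371, 3663 and 3017 at 12 months and 1563, 64467 and 64857 at 10 months. The lowest readings fell on leg arrays with low maxima: Myh4 was at 1.79 to 34.3% of the maximum on the 12-month leg arrays, and at 61.3 to 87.8% in 10-month leg replicates 2 and 3. On the 10-month replicate 1 arrays, whose maxima were also low, it was at 0.00156 and 3.89% in leg and at 35.7 and 37.1% in EOM.

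The EOM-minus-leg difference of Myh4 was 2.78 in SJL (SE 1.73, adjusted p = 0.378) and 2.37 in Balb (SE 1.73, adjusted p = 0.41), and its direction was not stable. At 12 months alone it was 2.56 in SJL (adjusted p = 0.104) and 3.78 in Balb (adjusted p = 0.019). On the 10-month arrays of replicates 2 and 3 it turned to -0.68 in SJL (SE 0.16, adjusted p = 0.0166) and -0.24 in Balb (SE 0.16, adjusted p = 0.379). Without the single array SJL leg 10 months replicate 1, the SJL difference was 0.71 (adjusted p = 0.67). No direction between muscles is given for Myh4 on this ground. Strain differences were -0.03 in EOM (95% interval -3.87 to 3.81) and -0.45 in leg (95% interval -3.88 to 2.99).

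**Figure D3:**
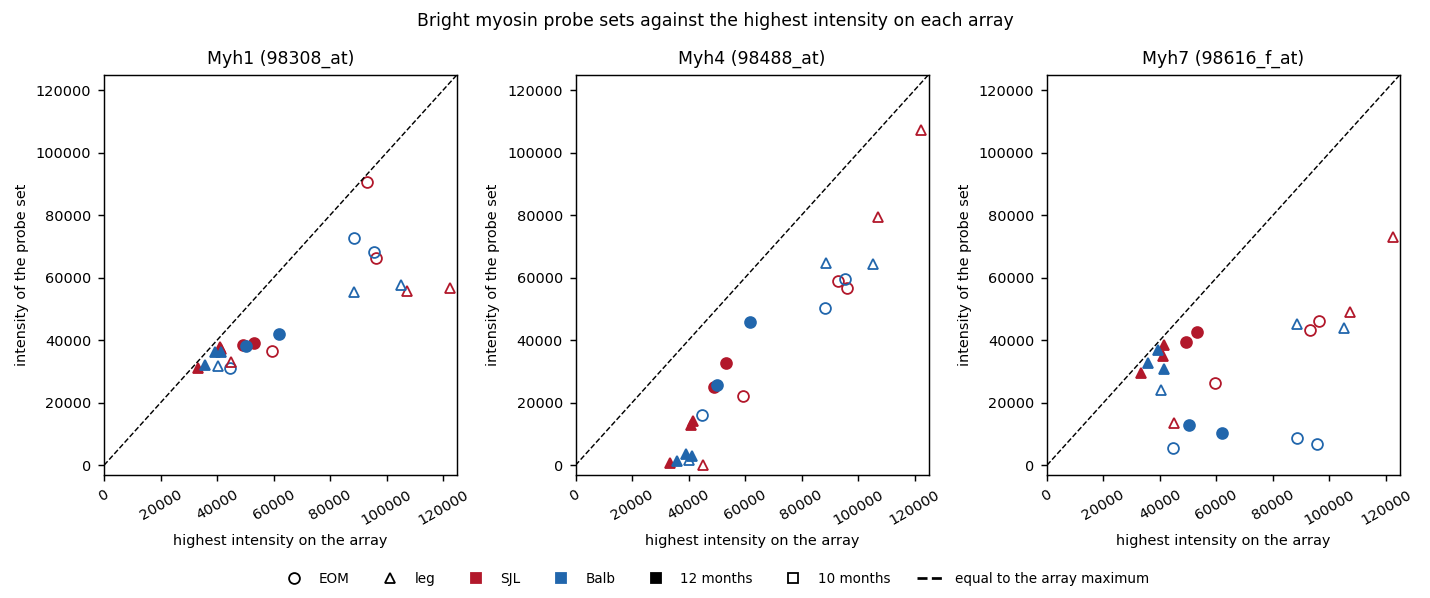
Intensity of Myh1, Myh4 and Myh7 on each array against the highest intensity of any probe set on that array, both on linear axes. Circles are EOM, triangles leg, red SJL, blue Balb, filled 12 months, open 10 months, and the dashed line marks the array maximum. The 12-month leg arrays crowd near the line for Myh1 and Myh7, at 74.3% of the maximum or more, and lie far under it for Myh4.

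Other fast-fibre genes were set beside Myh1 and Myh4. Of 11 tested in a list of 12, 2 were called in SJL, both lower in EOM than in leg, where 9.56% of all probe sets were called. In Balb 3 of the 11 were called, 2 lower and 1 higher in EOM, where 13.6% of all were called. The medians over the 11 were 0.24 in SJL and 0.29 in Balb. Myom2, which encodes an M-band protein, fell in EOM with log2 differences of -5.03 in SJL and -5.10 in Balb (adjusted p = 8.5e-09 and 6.57e-09). Pvalb, the calcium buffer parvalbumin, differed by -0.87 and -1.17 (adjusted p = 0.0119 and 0.000964). Atp2a1, the fast calcium pump, was higher in Balb EOM by 2.38 (adjusted p = 0.0279), and in SJL it differed by 0.86 (adjusted p = 0.511). Between 12 and 10 months Atp2a1 differed by -4.32 in leg and by -1.72 in EOM. The part of the low maxima of the 12-month leg arrays in its muscle difference was not tested. No fast gene passed between strains in either muscle. Of the genes known to fold myosin or build the thick filament, 5 of 10 were tested, and Mybph, a myosin binding protein, was lower in EOM in SJL (-1.55, adjusted p = 0.0483) and in Balb (-2.07, adjusted p = 0.00674).

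Counted together, 2 of the 7 tested probe sets were called between EOM and leg in SJL, both higher, where 9.56% of all 8695 probe sets were called and 6.14% were higher. In Balb 3 were called, 2 higher and 1 lower, where 13.6% of all were called, 8.72% higher and 4.86% lower. The members' median difference was 0.48 in SJL and 0.72 in Balb, against 0.04 and 0.11 over all probe sets. Between strains in EOM 1 of 7 was called, higher in SJL, where 0.932% of all were called and 0.368% higher. Between strains in leg none of the 7 was called by limma, where 1.41% of all were; 1 had an unadjusted p under 0.05. For the difference of the strain effects none was called either, where 0.092% of all were, and 1 had an unadjusted p under 0.05. In these muscle and strain comparisons the called members were also those whose groups did not overlap at either age. Over all probe sets that held for EOM against leg for 5.29% as higher and 3.17% as lower in SJL and for 8.42% and 5.41% in Balb, and for SJL against Balb in EOM for 1.6% and 2.1%. Between the strains in leg no member kept its groups apart at both ages, where 1.38% of all did as higher and 1.54% as lower.

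**Figure D4:**
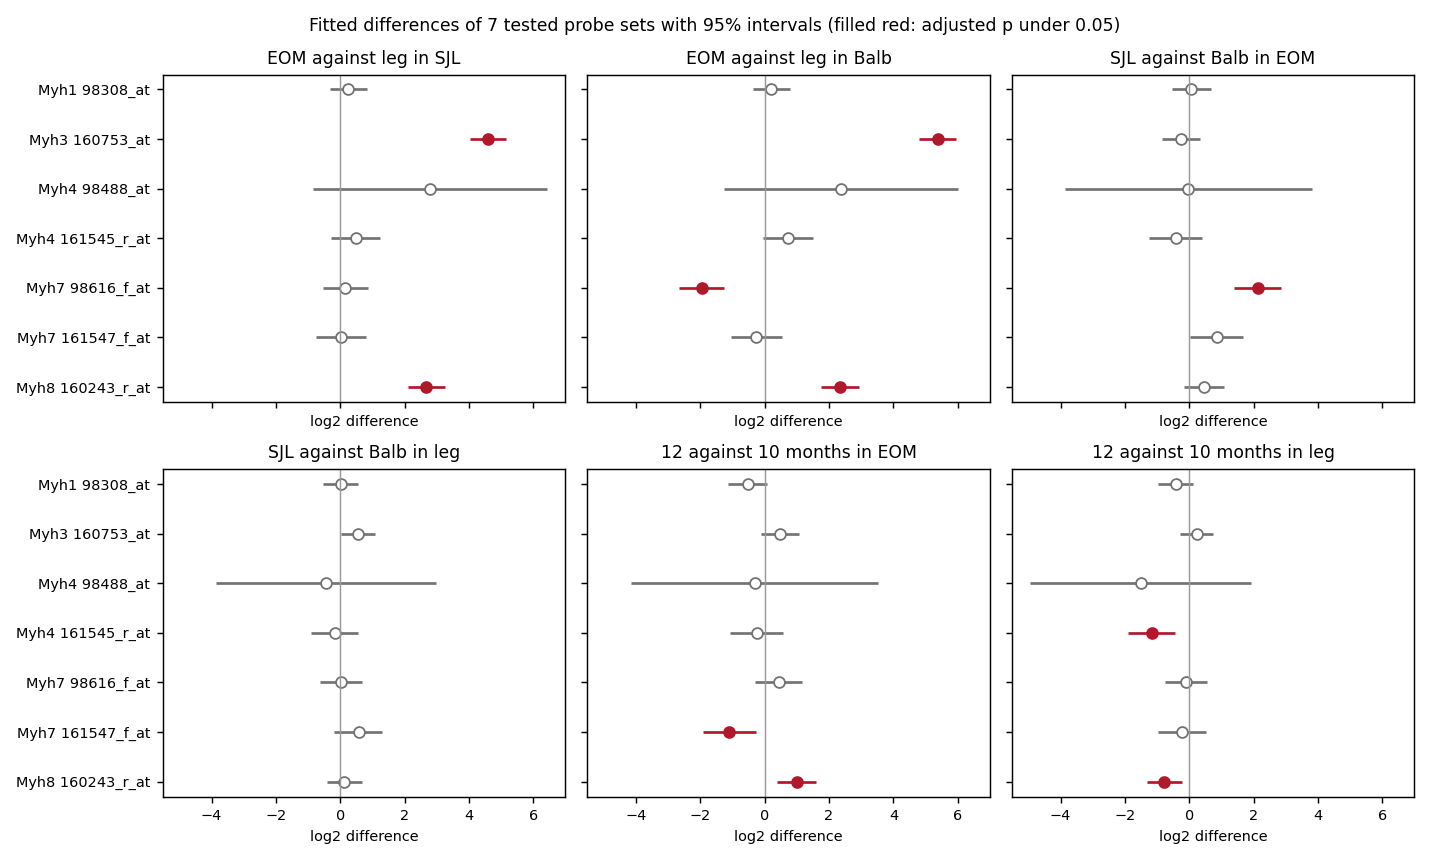
Fitted log2 differences of the 7 tested probe sets with 95% intervals, for EOM against leg, SJL against Balb and 12 against 10 months. Filled red points have an adjusted p under 0.05, and points right of the grey line are higher in the group named first. The interval of Myh4 98488_at spans -1.28 to 6.01 for EOM against leg in Balb.

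None of the second probe sets of Myh4, Myh7 and Myh8 was called between muscles or strains. Myh4 (161545_r_at) read between 208.6 and 1702, and its EOM-minus-leg difference was 0.48 in SJL (adjusted p = 0.495) and 0.72 in Balb (adjusted p = 0.226). Myh7 (161547_f_at) read between 151.4 and 1472, with an SJL-minus-Balb difference in EOM of 0.85 (SE 0.40, unadjusted p = 0.0465, adjusted p = 0.59) and an EOM-minus-leg difference in Balb of -0.26 (adjusted p = 0.708). Both Myh7 probe sets thus had a positive strain difference in EOM, and 1 of the 2 was called. The dimmer one also differed by 0.57 in leg (SE 0.35, adjusted p = 0.793). Its difference of strain effects was 0.28 (SE 0.53, unadjusted p = 0.607). At 12 months it read 648.0 and 178.9 in SJL EOM and 225.4 and 341.2 in Balb EOM, which overlap. It does not show a strain difference limited to EOM. Myh8 (162374_r_at) read between 9.6 and 408.1 and was too dim to be tested. Fitted with no filter, it differed by -0.96 between EOM and leg in SJL (adjusted p = 0.403) and by -0.65 in Balb (adjusted p = 0.55), opposite in sign to the brighter Myh8 probe set. Levels of different probe sets are not comparable, and which of a pair reads its gene better was not tested.

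Myh2, the fast IIA chain, was near the bottom of the array. Its probe set read between 5.6 and 283.1, with a median of 58.6, and its median place was at the 13.5th percentile of the array. By group it averaged 59.15 ± 40.1 in SJL EOM and 25.0 ± 17 in SJL leg at 12 months, and 32.7 ± 22.9 in Balb EOM and 98.13 ± 74.1 in Balb leg at 12 months (SD, n = 2 for EOM and 3 for leg). At 10 months it averaged 140.6 ± 87.6 in SJL EOM, 80.17 ± 31.6 in SJL leg, 162.2 ± 113 in Balb EOM and 86.4 ± 48.6 in Balb leg (n = 3 each). All neighbours in the order of the 8 means overlapped. Fitted with no filter, Myh2 passed in no comparison, and its lowest adjusted p was 0.0551.

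**Figure D5:**
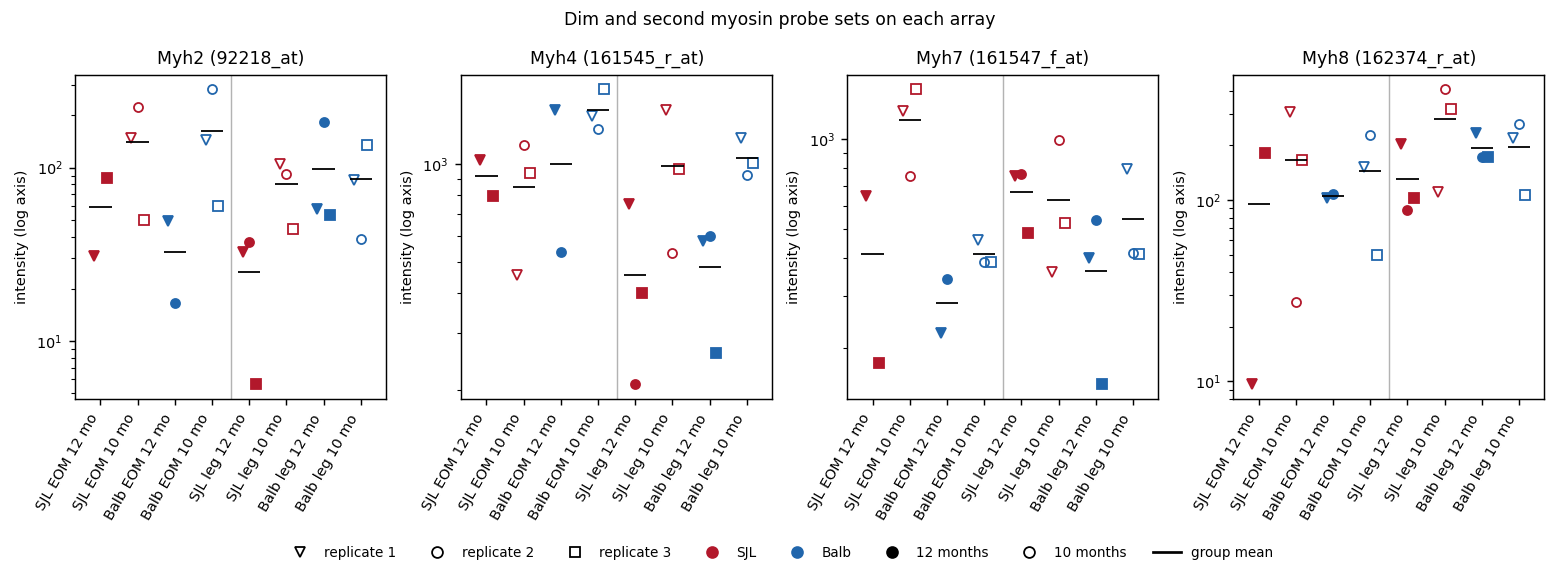
Intensity on each array (log axis) of Myh2 and of the second probe sets of Myh4, Myh7 and Myh8 in the 8 groups, drawn as in the plot of Myh3, Myh8 and Myh7. Myh2 stays at 283.1 or less on every array.

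Between 12 and 10 months, Myh8 (160243_r_at) was higher at 12 months in EOM and lower in leg. In EOM it averaged 4475 ± 694 at 12 months and 2648 ± 941 at 10 months in SJL, and 3660 ± 5.02 at 12 months and 1695 ± 674 at 10 months in Balb (SD, n = 2 at 12 and 3 at 10 months). The 12-minus-10-month difference over both strains was 0.99 (SE 0.29, adjusted p = 0.0171), and the ages did not overlap in either strain. The call was lost without SJL EOM 12 months replicate 1 (adjusted p = 0.0743) or Balb EOM 12 months replicate 2 (adjusted p = 0.0565). In leg the difference was -0.77 (SE 0.26, adjusted p = 0.0257), with overlap between ages, and it was not called after quantile normalization (-0.34, adjusted p = 0.362) or median centring (-0.35, adjusted p = 0.269). The age difference in EOM minus that in leg was 1.77 (SE 0.39, unadjusted p = 0.000269, adjusted p = 0.221). This comparison was chosen after the values were seen. On the 22 arrays 0.0115% of all probe sets passed it, and Myh8 did not. After quantile normalization the Myh8 value was 1.35 (adjusted p = 0.864) and after median centring 1.62 (adjusted p = 0.357). Without the 10-month replicate 1 arrays Myh8 passed (1.35, adjusted p = 0.0374). So did Myh4 (98488_at, 3.63, adjusted p = 0.0355) and Myh7 (98616_f_at, 0.84, adjusted p = 0.0139). The share of all probe sets on those arrays is not given.

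Other age calls were on the second probe sets. Myh4 (161545_r_at) was lower at 12 months in leg (-1.17, SE 0.35, adjusted p = 0.0126). It averaged 454.0 ± 276 at 12 months and 988.0 ± 468 at 10 months in SJL leg, and 480.2 ± 191 at 12 months and 1047 ± 144 at 10 months in Balb leg (SD, n = 3 each). It was not called after quantile normalization (-0.77, adjusted p = 0.0967) or median centring (-0.74, adjusted p = 0.0887). Myh7 (161547_f_at) was lower at 12 months in EOM, by -1.10 (SE 0.40, adjusted p = 0.047), a call lost without most single arrays. Thus 2 of 7 members were called in leg, both lower, where 38.5% of all probe sets were called and 27% lower, and 2 of 7 in EOM, 1 higher and 1 lower, where 27.6% of all were called, 7.91% higher and 19.7% lower. These shares are near the background and are no result about the members. In EOM the ages did not overlap in either strain for Myh3 and Myh8 as higher and this Myh7 probe set as lower, where 11.1% and 18.3% of all probe sets did so. In leg no member kept its ages apart in both strains, where 10.2% of all did as higher and 19.3% as lower.

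The bright fast and slow probe sets gave no usable age direction in leg. Myh1 differed by -0.42 between 12 and 10 months in leg on all arrays (adjusted p = 0.21), by -0.69 without the 10-month replicate 1 arrays (adjusted p = 1.93e-05) and by 0.36 after quantile normalization (adjusted p = 0.0493). Myh7 (98616_f_at) differed by -0.11 (adjusted p = 0.807), by -0.61 (adjusted p = 0.000367) and by 0.74 (adjusted p = 0.0173) under the same settings. Myh4 (98488_at) differed by -1.51 (adjusted p = 0.487), and by -4.48 without those arrays (adjusted p = 2.01e-05) or by -3.58 without SJL leg 10 months replicate 1 alone (adjusted p = 0.00516). Median centring moved the median of all probe sets in this comparison to 0.33, against -0.09 on the values as deposited. Of the 11 fast-fibre genes, 6 were lower and 1 higher at 12 months in leg, with a median of -1.58. Of all probe sets 27% were lower and 11.5% higher. The lower ones of the 11 included Atp2a1 (-4.32, adjusted p = 4.95e-05), Actn3 (-3.91, adjusted p = 1.13e-05) and Tnni2 (-1.58, adjusted p = 2.38e-05). The higher one was Myom2 (1.13, adjusted p = 0.0043). The part of the low array maxima in these differences was not tested.

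Genes of immature or regenerating fibres were set beside Myh3 and Myh8. Of 15 tested in a list of 18, 3 were higher in EOM than in leg in SJL, and 5 higher and 1 lower in Balb. Of all probe sets 6.14% were higher in SJL, and 8.72% were higher and 4.86% lower in Balb. The medians over the 15 were 0.45 in SJL and 0.34 in Balb. Chrna1, the acetylcholine receptor's alpha subunit, was higher in EOM by 1.80 in SJL (adjusted p = 0.000535) and 2.36 in Balb (adjusted p = 2.63e-05). Actc1, the cardiac actin of developing skeletal muscle, was higher by 2.19 in Balb EOM (adjusted p = 7.5e-05), and Myod1, a regulator of muscle commitment, differed by -0.65 (adjusted p = 0.0236). Between the leg groups 2 of the 15 were higher in SJL than in Balb, Actc1 by 1.83 (adjusted p = 0.00115) and Chrna1 by 1.75 (adjusted p = 0.00134), while Myh3 and Myh8 were not called there. Of all probe sets 0.736% were higher in SJL leg. Of 6 macrophage markers, 2 were also higher in SJL leg, Ctss by 2.05 (adjusted p = 0.00248) and Lyz2 by 1.36 (adjusted p = 0.00664), with sums over the 6 of 12643 to 26113 in SJL leg and 6124 to 12999 in Balb leg. Their part in the Actc1 and Chrna1 differences was not tested.

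Markers of other cells were compared between muscles, where 6.14% of all probe sets were called higher in EOM in SJL and 8.72% in Balb. Of the 4 tested of 6 Schwann cell markers, all 4 were higher in EOM in both strains, with sums of 17267 to 21543 in SJL EOM and 3877 to 6965 in SJL leg, and of 13523 to 16051 in Balb EOM and 4106 to 7029 in Balb leg. Of 5 smooth muscle markers, 3 were higher in SJL EOM and 1 in Balb EOM. Of 5 tested gland markers, 2 were higher in SJL EOM and 4 in Balb EOM, and of 6 macrophage markers none was higher in SJL EOM and 4 in Balb EOM. Of the 3 tested of 5 adipocyte markers, 2 were higher in Balb EOM, Adipoq by 1.76 (adjusted p = 0.00167) and Lpl by 0.62 (adjusted p = 0.0377), and none was called in SJL. Of the 4 tested heart markers, 2 were higher in SJL EOM, Tnni3 by 1.00 (adjusted p = 0.00855) and Tnnt2 by 0.83 (adjusted p = 0.0488), and none was called in Balb. Tnnt2 is also on the list of immature or regenerating fibre genes and was counted in both. The part of these markers in the Myh3 and Myh8 differences was not tested.

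The genes whose log2 values ran most alike with each tested member over the 22 arrays are given as a description, since the points share arrays, muscle and array quality. The brightest probe set stood for each member, and Myh2 was not tested. For Myh3 they were Scd2 (Pearson r = 0.972), Gng11 (0.969) and Plat (0.954), and for Myh8 Slc4a3 (0.929), Lpin2 (0.924) and Abcc8 (0.922). For Myh7 (98616_f_at) they were Myl2 (0.948), Tnnc1 (0.932) and Tnni1 (0.887), all 3 of the slow-fibre list. For Myh1 they were Fth1 (0.952), Acaa2 (0.943) and Rps24 (0.928), and for Myh4 (98488_at) Tnnc2 (0.903), Acta1 (0.894) and Pgk1 (0.857).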

How the data were processed

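Intensities for 12488 probe sets on 22 Affymetrix arrays were deposited by the authors, 1 linear intensity per probe set and array. Per the labels' protocols a standard Affymetrix protocol was used; the software and its summarization are not given in the sources used here. The 2%-trimmed mean of each array lay between 1500.8 and 1501.1, which shows that the arrays had been brought to 1 common level. Probe set names came from the platform annotation, and 66 control probe sets were set aside. The deposited intensities were put on a log2 scale after adding 16. Probe sets in the lowest 30% by mean were dropped, which left 8695. A mean for each of 8 groups was fitted with limma 3.58.1 in R 4.3.3, with an intensity trend in the prior variance, 14 residual and 3.63 prior degrees of freedom. Strain and muscle differences weigh both ages equally. Tests were two-sided and Benjamini-Hochberg adjusted over all 8695 probe sets, with a threshold of 0.05. Fold changes are on the intensity plus 16 scale and understate changes of dim genes. The fit was tested on simulated data. Members and gene lists were chosen with earlier results of these data known. Named by rule were all members, the 3 genes most alike with each tested member by Pearson's r, and up to 3 genes of a list with the smallest adjusted p in a comparison. Further list genes, mostly of the slow-fibre list, were named after their values were seen. The number of arrays limits the precision. Alternatives tried were other pseudocounts, no filter, quantile normalization, median centring, clipping at the lowest array maximum, no trend, smaller sets of arrays, a replicate block and leaving out each array. Plots were made in Python 3.11.15 (matplotlib 3.10.9).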

Additional observations from a re-analysis of the deposited data

How the results depend on the processing

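The Myh3 differences between EOM and leg and the Myh8 differences between EOM and leg kept their direction under all 35 alternatives for each strain, and Myh3 kept its call in all of them. On the 10-month arrays alone the number of member probe sets called was 1 in SJL (2 on all arrays) and 1 in Balb (3 on all arrays) for EOM against leg, and 0 for SJL against Balb in EOM (1 on all arrays). For the difference of the strain effects, Myh7 (98616_f_at) was called, making 1 in place of 0, under quantile normalization, clipping, the replicate block, without the 10-month replicate 1 arrays, on the 12-month arrays and on the 10-month replicates 2 and 3 (this last chosen after seeing the data), and without SJL leg 10 months replicate 1 or replicate 2, so leaving out single arrays gave 0 to 1. For age in leg the count was 2, with 1 under median centring, 5 without the 10-month replicate 1 arrays, and 1 to 3 without single arrays; Myh8 lost its call without Balb leg 12 months replicate 3, SJL leg 12 months replicates 2 or 3, Balb leg 10 months replicates 1 or 2, or SJL leg 10 months replicate 2. For age in EOM the count was 2, with 1 under no filter, quantile normalization and the fit of only the groups compared, and 0 to 2 without single arrays. Without Balb EOM 12 months replicate 2 it was 0. There Myh7 (161547_f_at) was called in 7 of 22 such fits, those without Balb leg 12 months replicates 2 or 3, SJL EOM 12 months replicate 1, Balb leg 10 months replicate 1, SJL leg 10 months replicates 1 or 2, or SJL EOM 10 months replicate 2. The cause of these changes was not tested. Same-numbered samples of different groups deviated with correlations of -0.081 to 0.039 at 12 months (12 pairs) and 0.26 to 0.774 at 10 months (18 pairs), so the 10-month samples deviated together by number and the 12-month samples did not. Since the 12-month pairs stayed under 0.1, the numbers were not taken to pair the samples in the main fit. The shared deviation of the 10-month samples is thus left in the spread behind the main p-values. With the replicate block, the difference of the strain effects of Myh7 (98616_f_at) was 2.15 (adjusted p = 0.00225), and the counts of member probe sets called in the other comparisons moved by less than 1.5 times. Over all probe sets the block gave 1789 calls in place of 831 for EOM against leg in SJL, 2234 in place of 1181 in Balb, 333 in place of 123 for SJL against Balb in leg, 212 in place of 81 in EOM and 34 in place of 8 for the difference of the strain effects. Over the alternatives other than leaving out single arrays, these counts ran from 64 to 2680, from 81 to 2901, from 8 to 711, from 3 to 718 and from 0 to 156, the lowest on the 10-month arrays alone and the highest without the 10-month replicate 1 arrays. For age in leg 5351 were called without those replicate 1 arrays in place of 3349, and in EOM 3691 in place of 2399. No called member changed sign. Intensities on arrays with low maxima limit what the brightest probe sets can show.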

Other observations

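Myh6, the alpha heavy chain of the heart, was too dim to be tested with the filter and was looked at after its values were seen. Its probe set (101071_at) read 631.0 and 491.6 in SJL EOM at 12 months and 1134, 447.4 and 289.6 in SJL EOM at 10 months, against 18.8 and 158.2 in Balb EOM at 12 months and 65.9, 34.5 and 34.3 in Balb EOM at 10 months. No array of the strains overlapped. Fitted with no filter, the SJL-minus-Balb difference of Myh6 in EOM was 3.04 (SE 0.60, adjusted p = 0.0141), and in leg 0.63 (adjusted p = 0.936). The difference between these strain effects was 2.41 (adjusted p = 0.635).

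Of 8 other myosin heavy chain genes listed, 3 had a tested probe set. Myh11, the smooth muscle chain, was higher in SJL EOM than in SJL leg by 2.72 (SE 0.56, adjusted p = 0.00363), with means of 7391 ± 457 in EOM (SD, n = 2) and 1074 ± 269 in leg (n = 3) at 12 months. In Balb the EOM-minus-leg difference of Myh11 was 1.56 (SE 0.56, adjusted p = 0.0734). The difference between the strain effects was 1.16 (SE 0.79, unadjusted p = 0.158), so Myh11 was not shown to differ between strains. Myh11 was higher at 12 than at 10 months in EOM by 1.96 (adjusted p = 0.0198) and in leg by 1.74 (adjusted p = 0.0136). Myh14, a non-muscle chain, fell in SJL leg against Balb leg (-1.21, adjusted p = 0.0365). In EOM the SJL-minus-Balb difference of Myh14 was -1.14 (adjusted p = 0.122), and the difference between the strain effects was 0.06 (adjusted p = 1), so it was not shown to differ between muscles. Myh9, another non-muscle chain, was 0.43 higher at 12 than at 10 months in leg (adjusted p = 0.0278). Of all probe sets 11.5% were higher at 12 months in leg and 7.91% in EOM, and age and array set cannot be told apart.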
